A study of Mus musculus with 6 samples.

Results

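Otog, Trpm5, Slc22a14, Slc2a5, Akr1b7, Fibcd1, Accn4, Lhcgr and Pcdh8 are 9 genes picked by name because earlier results of these same libraries showed their read counts nearly lost after day 3 of culture. They are 9 of the 23358 entries of the deposited count table, and each matched 1 entry. The low values at days 7 and 14 chose them, so their decline is described here without a test. The difference between genotypes and the pace of the decline in each genotype were tested where the design allowed. Both draw on the same low values that chose the members, so neither is independent of the choice.

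RNA was sequenced from immature mouse chondrocytes, cartilage cells of the knee and hip, taken at post-natal day 5 from mice of a mixed C57BL/6 strain. Wildtype and Ezh2-deficient cells were kept in micromass culture, in which a dense drop of cells lays down cartilage matrix, and collected at days 3, 7 and 14. All 6 libraries shared the same medium with 2% serum, insulin, transferrin and selenium, 0.05 mg/mL ascorbic acid and 10 mM β-glycerol phosphate, and each of the 6 groups had 1 library. The titles call the Ezh2-deficient cells a conditional knockout. The driver of the deletion, its share of cells and whether animals were pooled are not given in the sources used here. Ezh2, the methyltransferase of Polycomb repressive complex 2, had levels of 24.7 (day 3), 40.2 (day 7) and 27.9 CPM (day 14) in wildtype, and of 14.7, 23.0 and 17.6 CPM in Ezh2-deficient libraries (adjusted p = 0.0729 by edgeR for genotype). The deleted stretch is not given either, so this level does not check the labels.

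Freshly plated chondrocytes leave the dense matrix of young cartilage and rebuild it in the drop, and their expression changes as they do so. Polycomb repressive complex 2 marks the chromatin of silent developmental genes with histone H3 lysine 27 methylation and is known for keeping genes of other lineages off. Most of the 9 genes are known from tissues other than cartilage. The 9 genes encode ion channels, sugar and organic ion transporters, a steroid-tissue reductase, an inner ear gel protein, receptors of the cell surface and a protocadherin.

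Depth lay between 51985214 and 79323302 counts per library. Every count was even, so a sequenced fragment is taken as 2 counts. Levels are counts per 1000000 counts (CPM), with library totals adjusted by TMM, the trimmed mean of M values method, and 3 fragments, the limit that a count of 0 allows, correspond to between 0.0763 and 0.114 CPM. Intervals in brackets are exact 95% counting intervals, which cover counting error only, because each group has a single library. The summed level of 17 cartilage markers went from 151745 and 147004 CPM at day 3 to 41639 and 26836 CPM at day 14 (wildtype and Ezh2-deficient). Col2a1 alone held 79138 and 78053 CPM of the day 3 sums. At day 7, 0 of these 17 were at least 4-fold lower in both genotypes (0.78% of tested genes), and at day 14 6 were (2.3%). Chad went the other way, from 21.0 and 29.0 CPM at day 3 to 205 and 175 CPM at day 14. It was the 1 marker of the 17 at least 4-fold higher in both genotypes at day 14. Over the same days 13 macrophage markers went from 161 and 125 CPM to 2377 and 3209 CPM, and 12 of the 13 were at least 4-fold higher in both genotypes at day 7 (4.48% of tested genes). In such bulk RNA, fewer cells of a type and less RNA per cell cannot be told apart, and the part of these shifts in the levels below was not tested.

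The sequences just before the start sites of 5 members are shown because these genes shared a steep decline and differed in promoter composition. Each runs 5′ to 3′ on the gene's own strand, from the RefSeq promoter table of build GRCm38.p6. Of the 9 genes 8 matched that table, all but Accn4. Capitals mark matches on either strand to 9 short motifs searched in the 250 bases before the start site. The Otog stretch is chr7:46240737-46240986 (plus strand), that of Fibcd1 is chr2:31846006-31846255 (minus), that of Akr1b7 is chr6:34412112-34412361 (plus) and that of Trpm5 is chr7:143094643-143094892 (minus). For Slc2a5 the first 150 of the 250 bases are shown, chr4:150119094-150119243 (plus).
Otog: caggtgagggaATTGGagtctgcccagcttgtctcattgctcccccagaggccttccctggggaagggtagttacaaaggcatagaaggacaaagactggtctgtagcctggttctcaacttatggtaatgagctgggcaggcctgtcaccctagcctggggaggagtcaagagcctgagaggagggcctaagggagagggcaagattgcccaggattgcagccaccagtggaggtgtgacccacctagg
Fibcd1: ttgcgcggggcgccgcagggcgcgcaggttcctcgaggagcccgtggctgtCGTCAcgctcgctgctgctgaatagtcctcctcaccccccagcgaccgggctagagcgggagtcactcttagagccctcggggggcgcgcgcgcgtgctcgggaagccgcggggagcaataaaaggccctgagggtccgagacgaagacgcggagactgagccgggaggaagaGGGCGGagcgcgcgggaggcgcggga
Akr1b7: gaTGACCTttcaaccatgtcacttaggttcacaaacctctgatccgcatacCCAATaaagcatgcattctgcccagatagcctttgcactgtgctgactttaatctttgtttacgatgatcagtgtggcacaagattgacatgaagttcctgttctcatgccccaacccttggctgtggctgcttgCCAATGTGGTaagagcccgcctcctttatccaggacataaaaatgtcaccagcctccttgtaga
Trpm5: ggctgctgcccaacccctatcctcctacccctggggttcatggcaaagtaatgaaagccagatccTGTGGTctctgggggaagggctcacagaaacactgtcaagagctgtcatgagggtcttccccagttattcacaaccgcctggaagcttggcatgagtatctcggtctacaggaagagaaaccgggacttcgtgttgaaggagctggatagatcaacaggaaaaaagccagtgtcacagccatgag
Slc2a5: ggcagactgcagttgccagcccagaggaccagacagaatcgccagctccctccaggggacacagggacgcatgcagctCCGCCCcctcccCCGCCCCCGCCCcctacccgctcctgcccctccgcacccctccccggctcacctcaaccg

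Otog and Fibcd1, which declined most alike in wildtype cells by day 7, were the farthest apart of the 8 in CpG content. The Otog stretch held 0 CpG dinucleotides, as did 7.87% of 32851 mouse promoters of the same length, and 57.2% of its bases were G or C. The Fibcd1 stretch held 34 CpG, a number reached by 3.53% of promoters, with a G and C content of 71.6%. The median promoter had 52.4% G and C. Slc2a5 held 15 CpG in its 250 bases, Lhcgr 12, Pcdh8 11, Trpm5 4, and Slc22a14 and Akr1b7 3 each. The members therefore covered both CpG-free and CpG-rich promoters.

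No motif was common to the members. GGGCGG, the GC box, was found in Fibcd1 (1 match), Slc2a5 (3 matches) and Lhcgr (4 matches), against 32.7% of all promoters. TGTGGT, a RUNX site, was in Trpm5, Akr1b7 and Lhcgr (14.0% of all), AGGTCA, a site of many nuclear receptors, was in Akr1b7, Slc22a14 and Lhcgr (14.0%), and CCAAT was in Otog, Akr1b7, Slc22a14 and Pcdh8 (33.8%). TGACG, the core of the cAMP response element, was in Fibcd1 alone (17.8%), ACAATG, a SOX site, in Slc22a14 alone (10.7%), and TATAAA in Pcdh8 alone (12.4%). TGANTCA, an AP-1 site (6.75%), and CACGTG, an E-box (6.02%), had no match in the 8 members searched. The only overlap of matches was 1 base shared by CCAAT and TGTGGT in Akr1b7. A match is a description of letters and not a measured site.

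The ion channels were Trpm5 and Accn4. Trpm5 (chromosome 7, 143071529 to 143094642, minus strand, mm10) is a calcium-activated cation channel of taste and tuft cells. Its level in wildtype was 15.1 CPM at day 3, 1.42 at day 7 and 0.304 at day 14, and in Ezh2-deficient libraries 32.1, 2.52 and 0.073 CPM. The Ezh2-deficient library was the higher of the pair at days 3 and 7. At day 14 it held only 2 fragments and was the lower. Accn4 (listed in GENCODE as Asic4; chromosome 1, 75450510 to 75474340, plus strand) encodes a subunit of the acid-sensing ion channel family. It stood at 2.79, 0.0567 and 0.076 CPM in wildtype and at 3.47, 0.178 and 0.146 CPM in Ezh2-deficient libraries at days 3, 7 and 14. These are 92 and 129 fragments at day 3 and between 2 and 7 afterwards, so both genotypes were close to the detection limit from day 7 on.

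The transporters were Slc2a5 and Slc22a14. Slc2a5 (chromosome 4, 150119344 to 150144168, plus strand), the fructose transporter GLUT5, was at 42.9 CPM in wildtype at day 3, 0.879 at day 7 and 0.494 at day 14. In Ezh2-deficient libraries it was at 35.7, 3.84 and 0.438 CPM. The genotypes were close at days 3 and 14 and apart at day 7, when the Ezh2-deficient library held 151 fragments and the wildtype library 31. Slc22a14 (chromosome 9, 119169456 to 119190393, minus strand), an organic ion transporter known from testis and sperm, was at 17.6, 1.53 and 0.228 CPM in wildtype. The Ezh2-deficient values were 16.8, 1.17 and 0.146 CPM. No day separated the genotypes of Slc22a14 beyond counting error.

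Akr1b7 (chromosome 6, 34412362 to 34423137, plus strand) is an aldo-keto reductase of adrenal cortex and vas deferens. It was at 8.13 CPM (268 fragments) in wildtype at day 3, at 0.0567 (2 fragments) at day 7 and at 0.114 (3 fragments) at day 14. The Ezh2-deficient libraries had 9.15, 0.534 and 0.328 CPM, or 340, 21 and 9 fragments. Its relatives Akr1b10 and Akr1b8 were 78.8% and 75.2% identical to it over aligned transcripts, with identical runs of at most 59 and 52 bases. Reads could have been split between these copies, so the level is uncertain to that extent. Akr1b10, the next entry on the chromosome, stood at 8.77 and 7.16 CPM at day 3 and 14.2 and 11.2 CPM at day 7, and Akr1b8 at 5.49 and 5.14 CPM and then 21.6 and 22.4 CPM. Both copies had more CPM at day 7 than at day 3, and Akr1b7 had less.

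Otog and Fibcd1 were, with Slc2a5, the 3 members with the highest day 3 levels. Otog (chromosome 7, 46240987 to 46311434, plus strand) encodes otogelin, a glycoprotein of the gels that cover inner ear sensory cells. In wildtype it had 129 CPM (day 3), 1.25 CPM (day 7) and 0.456 CPM (day 14). In Ezh2-deficient libraries the values were 114, 3.74 and 0.73 CPM. The wildtype library was the higher at day 3 and the lower at days 7 and 14. Fibcd1 (chromosome 2, 31813290 to 31846005, minus strand) is a membrane receptor whose fibrinogen-like domain binds acetylated sugars such as chitin. It was at 54.9, 0.511 and 1.06 CPM in wildtype and 38.3, 3.36 and 1.82 CPM in Ezh2-deficient libraries. Fibcd1 was the member with the most counts left at day 14 in each genotype, with 28 and 50 fragments.

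Lhcgr and Pcdh8 went against the description of the set. Lhcgr (chromosome 17, 88741549 to 88791976, minus strand), the receptor of luteinizing hormone and choriogonadotropin, was at 1.24, 3.09 and 0.19 CPM in wildtype and at 0.861, 1.86 and 0.073 CPM in Ezh2-deficient libraries. Its day 7 level was 249% [172 to 365] of day 3 in wildtype and 216% [140 to 338] in Ezh2-deficient cells, so it was higher, not nearly lost, at day 7. At day 14 it was 6.14% [1.96 to 14.8] and 3.93% [0.467 to 14.7] of its day 7 level. Pcdh8 (chromosome 14, 79766772 to 79771312, minus strand), a protocadherin of cell adhesion, had only 11 and 18 fragments at day 3, or 0.334 and 0.484 CPM. At day 7 it had 8 and 4 fragments and at day 14 1 and 0. Counted at 3 fragments, the Ezh2-deficient library at day 14 was 4.42-fold lower than at day 3. The counting interval there allows up to 30.9% of the day 3 level. Its wildtype level at day 7, 68.0% [23.7 to 186] of day 3, was not distinguishable from day 3 at this depth.

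**Figure D1:**
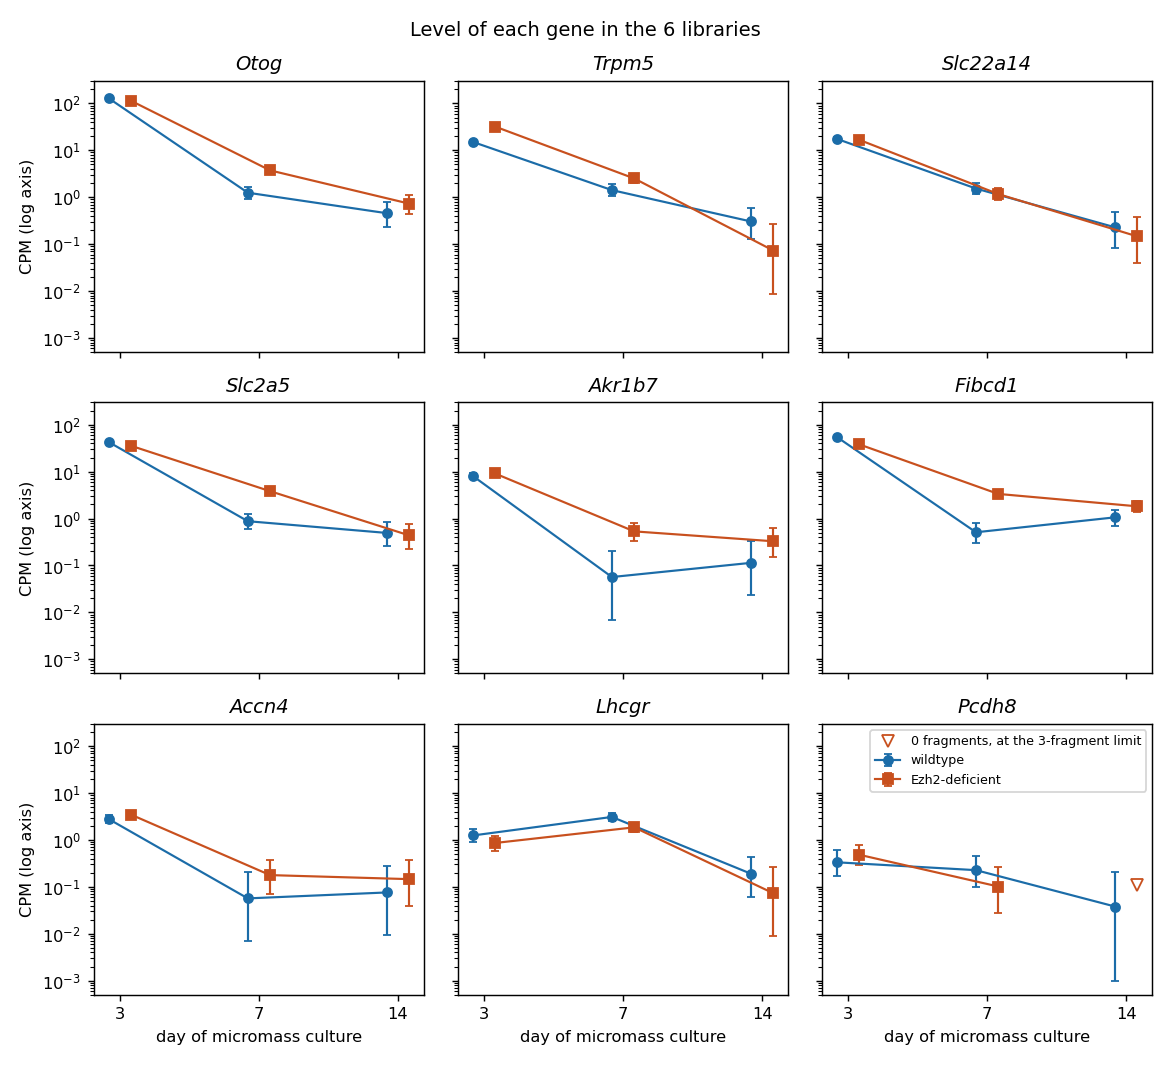
CPM (log axis) of the 9 genes against day of micromass culture, with wildtype as circles and Ezh2-deficient as squares. Each point is 1 library, bars are 95% counting intervals, and the open triangle marks a library with 0 fragments drawn at the 3-fragment limit. Most genes lie far lower from day 7 on, whereas Lhcgr is highest at day 7.

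Per length, the order of the members at day 3 was the same in both genotypes. On the authors' RPKM scale, which divides by coding length, the wildtype levels were 10.7 for Slc2a5, 9.95 for Otog, 8.96 for Fibcd1, 6.19 for Slc22a14, 5.04 for Akr1b7 and 2.67 for Trpm5. Accn4 (0.816), Lhcgr (0.377) and Pcdh8 (0.0646) followed. Of these neighbours only Slc2a5 and Otog had overlapping counting intervals. In the Ezh2-deficient library Slc2a5 (8.77) and Otog (8.64) again overlapped, and so did each neighbouring pair among Fibcd1 (6.13), Slc22a14 (5.81), Akr1b7 (5.58) and Trpm5 (5.57). Otog has the longest coding sequence of the set, 10043 bases, and leads it in CPM but not per length.

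From day 3 to day 7, 7 of the 9 genes were at least 4-fold lower in both genotypes, all but Lhcgr and Pcdh8. Among all 16280 tested genes 0.78% were, a share given as background only, because the same contrast chose the members. The change was at least 16-fold in both genotypes for Otog, Akr1b7 and Accn4, a size reached by 0.0369% of tested genes. By day 14, 9 of 9 were at least 4-fold lower than at day 3 in both genotypes (2.3% of tested genes), and 7 at least 16-fold (0.203%). These counts use log2 CPM with a prior count of 2. For Pcdh8 in wildtype, with 1 fragment at day 14, the share left was 11.4% [0.265 to 78.3]. Counted at 3 fragments it was 2.93-fold lower, which does not reach 4-fold. Upper limits at day 14 also allow less than 4-fold for Lhcgr (38.6% in wildtype, 33.2% in Ezh2-deficient cells) and Ezh2-deficient Pcdh8 (30.9%). For the 16-fold counts, intervals allow a smaller decline for Accn4 in both genotypes and Akr1b7 in Ezh2-deficient cells, at either day. The same holds for Fibcd1 in Ezh2-deficient cells at day 14 (6.32%).

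The pace differed between genotypes for some members and not for others. In wildtype cells Otog at day 7 was 0.968% [0.702 to 1.30] of its day 3 level, against 3.28% [2.76 to 3.86] in Ezh2-deficient cells. For Fibcd1 the shares left were 0.93% [0.55 to 1.47] and 8.76% [7.28 to 10.5]. Slc2a5 kept 2.05% [1.39 to 2.92] and 10.8% [9.02 to 12.7]. Akr1b7 kept 0.698% [0.0841 to 2.55] and 5.84% [3.57 to 9.07]. In these 4 genes the intervals lay apart, with more left in Ezh2-deficient cells each time. Among all tested genes 12.2% had more left in Ezh2-deficient cells with intervals apart, and 13.3% less. These shares are background only, because the day 7 levels also chose the members.

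The other members did not separate by genotype at day 7. Trpm5 kept 9.37% [6.86 to 12.5] in wildtype and 7.84% [6.32 to 9.63] in Ezh2-deficient cells, so its higher Ezh2-deficient level was already there at day 3. Slc22a14 kept 8.72% [6.47 to 11.5] and 6.96% [5.05 to 9.40]. Accn4 kept 2.03% [0.243 to 7.56] and 5.13% [2.02 to 10.9], an overlap that the few fragments leave wide.

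**Figure D2:**
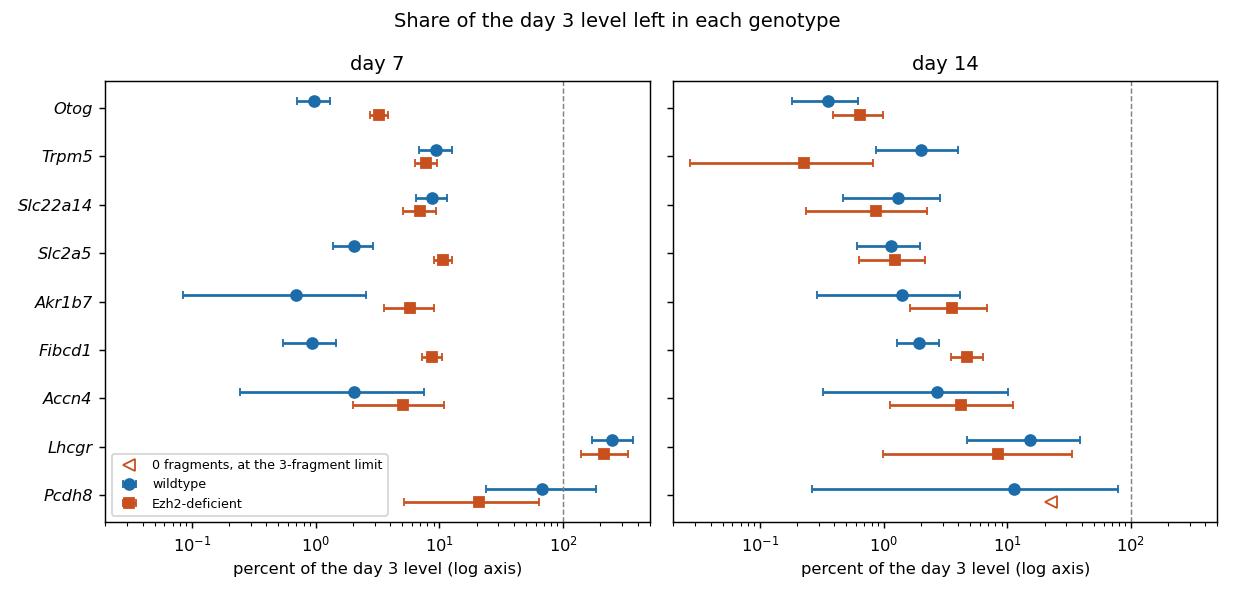
Percent of the day 3 level (log axis) left at day 7 and at day 14 for each gene, wildtype as circles and Ezh2-deficient as squares, with 95% counting intervals; the dashed line is 100%, and the open triangle marks 0 fragments at the 3-fragment limit. At day 7 the intervals of Otog, Slc2a5, Akr1b7 and Fibcd1 lie apart, and at day 14 those of Fibcd1 and Trpm5.

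By day 14 the log2 changes of the genotypes since day 3 had drawn closer in 5 members (Otog, Slc2a5, Akr1b7, Fibcd1 and Accn4) and lay further apart in the other 4, by counts that are few at day 14. Accn4 rested on 2 and 7 fragments at day 7 and 2 and 4 at day 14. The split was not set against all tested genes, and the same levels chose the members, so it is a description only. Otog was at 0.353% [0.183 to 0.618] of day 3 in wildtype and 0.64% [0.39 to 0.989] in Ezh2-deficient cells, and Slc2a5 at 1.15% [0.612 to 1.97] and 1.23% [0.632 to 2.15]. Slc2a5 thus had 56.2% [27.0 to 110] of its day 7 level left at day 14 in wildtype, against 11.4% [5.77 to 20.5] in Ezh2-deficient cells. Fibcd1 and Trpm5 were the 2 members whose intervals lay apart at day 14. Fibcd1 had 1.94% [1.28 to 2.81] of day 3 left in wildtype and 4.77% [3.52 to 6.32] in Ezh2-deficient cells. Trpm5 had 2.01% [0.862 to 3.99] and 0.227% [0.0275 to 0.823], the reverse order. Such intervals lay apart for 13.7% of tested genes with more left in Ezh2-deficient cells and 15.9% with less.

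Fibcd1 was the member whose course turned differently after day 7. In wildtype its day 14 level was 208% [111 to 400] of its day 7 level, and in Ezh2-deficient cells 54.4% [38.5 to 75.8]. Akr1b7 in wildtype gave 201% with an interval of 23.0 to 2405, which 2 and 3 fragments do not resolve. Of the 9 genes, 3 were at least 4-fold lower at day 14 than at day 7 in wildtype (1.03% of tested genes) and 6 in Ezh2-deficient cells (1.74%). The 6 include Pcdh8 through the prior count alone, since 4 and then 0 fragments allow up to 217% of the day 7 level. Trpm5, Slc22a14 and Lhcgr were lower by that fold in both genotypes (0.381% of tested genes). Upper limits allow less than 4-fold for Trpm5 in wildtype (45.5%), Slc22a14 (34.5% in wildtype, 34.2% in Ezh2-deficient cells) and Otog in Ezh2-deficient cells (31.3%). The levels at days 7 and 14 also chose the members, so these shares of tested genes are background only. In log2 terms Slc2a5 had covered 87.5% of its way from day 3 to day 14 by day 7 in wildtype and 51.3% in Ezh2-deficient cells. Slc22a14, by comparison, had covered 57.4% and 57.9%.

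**Figure D3:**
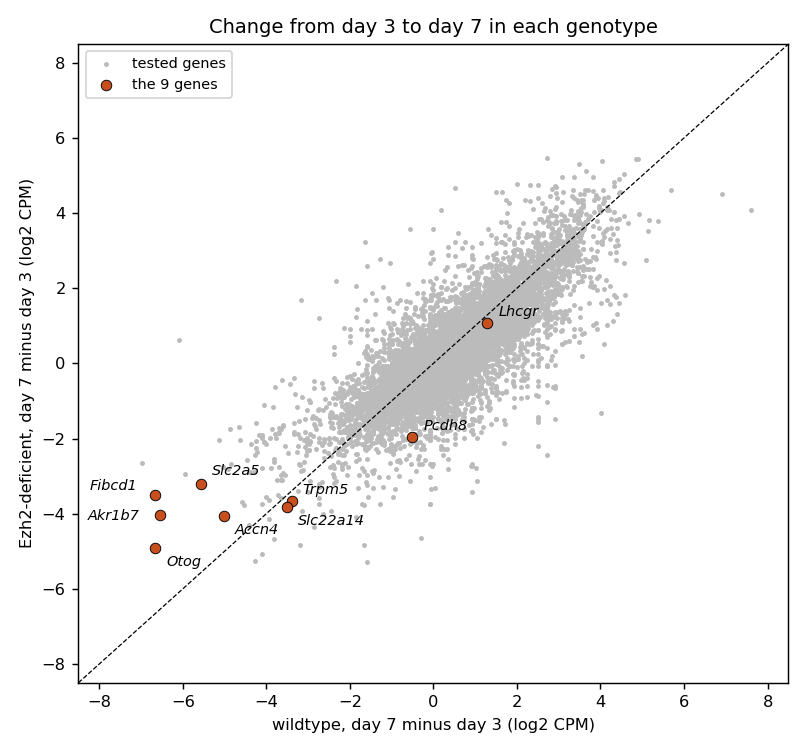
Change from day 3 to day 7 (log2 CPM, prior count of 2) in Ezh2-deficient against wildtype cells for the 16280 tested genes, with the 9 genes labelled; the dashed line marks equal change. Otog, Fibcd1, Akr1b7, Slc2a5 and Accn4 lie above the line at the far left, Trpm5 and Slc22a14 close to it, and Lhcgr is higher at day 7 in both genotypes.

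Within a day the genotypes have 1 library each, so their ratio has a counting interval and no replicate check. At day 3 only Trpm5 was at least 2-fold higher in the Ezh2-deficient library (4.44% of tested genes were), with a ratio of 2.12 [1.91 to 2.36], an interval above 1 as in 20.1% of tested genes. Otog (0.884 [0.847 to 0.923]), Slc2a5 (0.832 [0.772 to 0.898]) and Fibcd1 (0.697 [0.65 to 0.747]) were slightly lower there, with intervals under 1, as in 19.9% of tested genes. At day 7, 5 of the 9 genes were at least 2-fold higher in the Ezh2-deficient library, against 3.96% of tested genes. Their ratios were 2.99 [2.12 to 4.29] for Otog, 4.36 [2.95 to 6.65] for Slc2a5, 6.57 [4 to 11.4] for Fibcd1, 9.41 [2.30 to 82.8] for Akr1b7 and 3.14 [0.597 to 30.9] for Accn4, the last including 1. Otog, Slc2a5 and Fibcd1 were thus on opposite sides of 1 at days 3 and 7. The day 7 levels also chose the members, so the share of tested genes on that day is background only.

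Trpm5 was at 1.77 [1.25 to 2.55] at day 7, so 5 members had an interval above 1 on that day, against 22.9% of tested genes. Lhcgr was at 0.60 [0.44 to 0.815], an interval under 1 (24.3% of tested genes). At day 14 only Fibcd1 had an interval that excluded 1, with a ratio of 1.72 [1.06 to 2.83] (intervals above 1 in 22.9% of tested genes and below 1 in 23.6%). On that day Akr1b7 was the 1 member at least 2-fold higher in the Ezh2-deficient library (4.37% of tested genes), at 2.88 [0.719 to 16.6], and Trpm5, Lhcgr and Pcdh8 were at least 2-fold lower (5.87%), from 8 fragments or fewer in either library. These day 14 differences were not detectable at this depth.

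**Figure D4:**
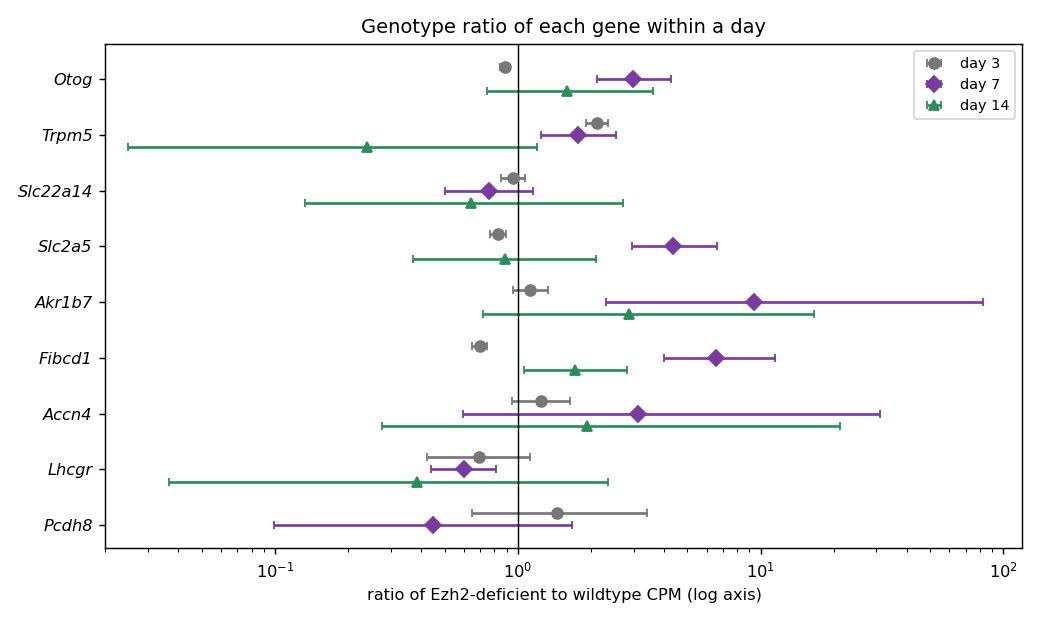
Ratio of Ezh2-deficient to wildtype CPM (log axis) for each gene at days 3 (circles), 7 (diamonds) and 14 (triangles), with 95% counting intervals; each point compares 2 libraries and Pcdh8 has no point at day 14. At day 7 the ratios of Otog, Slc2a5, Akr1b7 and Fibcd1 lie between 2.99 and 9.41, to the right of their day 3 ratios.

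Across days, no member passed a test of genotype. edgeR's quasi-likelihood F test, with day in the model and the 3 days taking the place of replicates, called 0 of the 9 genes, against 0.0123% of 16280 tested genes (2 genes), with Benjamini-Hochberg adjustment over all tested genes. At an unadjusted p under 0.05 there was 1 member, against 2142 of all tested genes, and DESeq2 (607 genes called) and limma-voom (40 called) called 0 members. At that unadjusted level DESeq2 had 2 members and 1988 genes in all, and limma-voom 2 and 2408. The member in edgeR was Lhcgr, at -0.74 ± 0.28 (log2, SE; adjusted p = 0.356 by edgeR), lower in the Ezh2-deficient library on 3 of 3 days. Akr1b7 was at 1.06 ± 0.54 (adjusted p = 0.461 by edgeR) and Accn4 at 0.70 ± 0.37 (adjusted p = 0.478 by edgeR), both higher on 3 of 3 days. Slc22a14 was at -0.26 ± 0.17 (adjusted p = 0.571 by edgeR), lower on 3 of 3 days. Of the ratios of Lhcgr, Akr1b7, Accn4 and Slc22a14, only those of Akr1b7 and Lhcgr at day 7 had counting intervals that excluded 1. The share of all tested genes with the same sign on 3 of 3 days was not counted, so this agreement of signs is a description only.

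Of the other genes that separated at day 7, Otog was at 0.55 ± 0.35, Slc2a5 at 0.57 ± 0.50 and Fibcd1 at 0.74 ± 0.59 (adjusted p = 0.554, 0.668 and 0.634 by edgeR). Without the day 7 pair Slc2a5 was at -0.24 and Fibcd1 at -0.02, so the positive sign of both rested on day 7. With a day pair left out Otog ranged from 0.031 (without day 7) to 1.22 (without day 3), and Akr1b7 from 0.52 to 2.36 for the same pairs. Trpm5 was at 0.67 ± 0.40 and Pcdh8 at -0.37 ± 0.69 (adjusted p = 0.530 and 0.853 by edgeR). Without the day 3 pair Trpm5 was at 0.076.

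A fit that let the genotypes part or approach with each doubling of day had 1 residual degree of freedom. It called 0 of the 9 genes by edgeR's quasi-likelihood test, against 0.614% of all tested genes (100 genes). At an unadjusted p under 0.05 edgeR had 1 member and 2167 of the 16280 tested genes, DESeq2 1 and 1158, and limma-voom 2 and 2140. In edgeR this was Otog, with a fitted difference of 0.80 ± 0.29 (log2, SE; Ezh2-deficient minus wildtype) per doubling (adjusted p = 0.336 by edgeR). Akr1b7 was at 1.04 ± 0.47, Fibcd1 at 0.90 ± 0.49 and Trpm5 at -0.73 ± 0.34 (adjusted p = 0.429, 0.509 and 0.436 by edgeR). Slc2a5 was at 0.69 ± 0.53 (adjusted p = 0.63 by edgeR). The ratios of Otog, Slc2a5, Akr1b7 and Fibcd1 were largest at day 7 and smaller again at day 14, a course that a straight line over log2 day does not follow. The counting intervals of days 7 and 14 lay apart for Slc2a5 and Fibcd1 only. For Otog and Akr1b7 they overlapped, so the smaller ratio at day 14 is not resolved for these genes.

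Other genes at least 16-fold lower at day 7 did not all share the day 7 difference. Of the tested genes, 15 were at least 16-fold lower at day 7 on the mean of the genotypes, and 5 of these were members, namely Otog, Slc2a5, Akr1b7, Fibcd1 and Accn4. At day 7, 5 of the 5 members and 3 of the 10 others were at least 2-fold higher in the Ezh2-deficient library. The median log2 ratio was 2.09 for the 5 members and 0.13 for the 10 others. At day 14 the order was the reverse, with 1 of 5 members and 7 of 10 others at least 2-fold higher. By day 7 the median log2 change in wildtype was -6.55 for the 5 members and -4.34 for the 10 others. In Ezh2-deficient cells it was -4.02 and -4.22. The 2 sets were thus not equally steep in wildtype, and the day 7 levels chose the members, so this comparison is a description only. Among 210 non-member genes at least 4-fold lower at day 7, 37.6% (79 genes) were at least 2-fold higher in the Ezh2-deficient library at day 7, against 3.96% of all tested genes, and 22 were at least 2-fold lower, against 3.57%.

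The genes whose profile over the 6 libraries came closest to the median profile of the members were found by the root mean square difference of centred log2 CPM, over 14028 genes. They were Abcc8 (0.49), Sh3tc2 (0.54), Slc16a14 (0.56), Wfdc3 (0.66), Gabrr2 (0.67) and Podxl (0.68). Sh3tc2 (wildtype value first) was at 92.2 and 84.5 CPM on day 3, 6.21 and 12.2 on day 7, and 2.09 and 2.55 on day 14. Slc16a14, a member of the monocarboxylate transporter family, was at 12.5 and 19.4, 0.908 and 2.24, and 0.304 and 0.438 CPM. Abcc8, the sulphonylurea receptor of potassium channels, was at 1.06 and 1.86 CPM at day 3 and listed at 0 in both day 14 libraries. Among the members Slc2a5 lay nearest to their median (0.31), while Pcdh8 (1.60) and Lhcgr (2.41) lay farthest. The closest pair of members was Akr1b7 and Fibcd1 (0.28) and the most distant Otog and Lhcgr (3.03).

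At day 7 no tested relative of a member in its gene family was as much as 4-fold lower in both genotypes. Of the inner ear gel proteins other than Otog, 6 were tested, and 0 were at least 4-fold lower in both genotypes at day 7. Its closest relative Otogl was at 1 and 1.18 CPM on day 3, 0.653 and 0.686 on day 7, and 0.418 and 0.328 on day 14. Among 5 other tested TRPM channels 0 were lower by that fold, and Trpm4, the closest relative of Trpm5, stayed between 15.4 and 25.8 CPM in all 6 libraries. Of 12 other tested Slc22 transporters 0, and of 9 other tested hexose transporters 0, were lower by that fold at day 7. Slc2a1, the main glucose transporter, was at 272 and 252 CPM at day 3 and 169 and 131 CPM at day 14. All of these compare with 0.78% of tested genes, and no gene of these lists was called for genotype or trend. At day 14, 1 Slc22 transporter, 1 fibrinogen-domain protein and 2 protocadherins were lower by that fold (2.3% of tested genes).

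Of the fructose pathway around Slc2a5, Khk, the kinase that traps fructose, was at 28.8 and 18.4 CPM on day 3, 9.08 and 10.4 on day 7, and 5.51 and 7.63 on day 14. Sord, which makes fructose from sorbitol, was at 6.52 and 6.70 CPM at day 3 and at 21.8 and 22.9 CPM at day 7. Dak, which acts after Khk and aldolase, was at 25.3 and 23.2 CPM and then at 19.4 and 19.6 CPM. Of the 4 tested genes 0 were past 4-fold in both genotypes in either direction, at day 7 or at day 14. The median log2 change at day 7 was -0.66 in wildtype and -0.16 in Ezh2-deficient cells, where that of all tested genes was -0.00075 and -0.03.

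Of 10 other tested aldo-keto reductases 0 were 4-fold lower at day 7 in both genotypes and 1 was 4-fold higher (4.48% of tested genes). Akr1a1 lay between 437 and 489 CPM throughout, and Akr1e1 between 17.4 and 21.8 CPM. The fibrinogen-domain proteins that share a domain with Fibcd1 went the other way in part: of 17 tested, 0 were 4-fold lower and 6 were 4-fold higher at day 7 in both genotypes. Tnc, the matrix glycoprotein tenascin C, was at 88.7 and 165 CPM at day 3 and 274 and 514 CPM at day 7. Among non-clustered protocadherins, the family of Pcdh8, 2 of 11 tested were 4-fold higher and 0 lower at day 7. Pcdh18 was at 5.07 and 8.85 CPM at day 3 and at 35.9 and 51.6 CPM at day 7.

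Lhcgr belongs to the glycoprotein hormone axis, of which 6 other genes were tested, 0 of them 4-fold lower and 1 higher at day 7 in both genotypes. Tshr, the thyrotropin receptor, was at 0.394 and 1.61 CPM on day 3, 2.78 and 4.7 on day 7, and 0.646 and 1.86 on day 14, so like Lhcgr it was highest at day 7. Lgr4, an R-spondin receptor of the same receptor family, was at 191 and 177 CPM on day 3 and 144 and 110 CPM on day 14.

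Apart from Accn1 in 1 library, the channel family of Accn4 was low in these cells. Accn2 was at 3.46 and 4.09 CPM on day 3, 2.67 and 3.64 on day 7, and 2.55 and 2.96 on day 14. Scnn1a, an epithelial sodium channel subunit, was at 2.28 and 3.26 CPM and then at 2.01 and 1.5 CPM. Accn1 was at 107 CPM in the Ezh2-deficient day 3 library and at most 0.114 CPM in the other 5 libraries. It did not pass the filter and was not tested, and Accn4 in that library did not differ from the wildtype day 3 library beyond counting error (ratio 1.24 [0.944 to 1.64]).

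Of the markers of cells in which several members are best known, some were near 0 and others were not. Lhcgr and Akr1b7 are markers of steroid-producing cells. Of the 16 other markers on that list, Hsd3b1, Hsd17b3 and Fshr were listed at 0 in all 6 libraries, and the master regulator Nr5a1 averaged 0.033 CPM. Star, the cholesterol carrier of steroidogenesis, lay between 3.27 and 3.71 CPM without a day pattern. Fdx1 and Fdxr averaged 13.5 and 9.91 CPM, and 5 of the 16 passed the filter and were tested. The summed level of the 16 was between 99.4 and 140 CPM, most of it from Scarb1, a lipoprotein receptor of many tissues (73.3 to 119 CPM). Trpm5 marks taste and tuft cells, whose factor Pou2f3 averaged 0.19 CPM and whose G protein Gnat3 0.015 CPM. The summed level of the other 13 markers of that list was 491 and 416 CPM at day 3 and 205 and 171 CPM at day 14 (wildtype first). Itpr3, Avil and Dclk1, which other cells also express, made up most of it. Between these days Avil went from 270 and 242 CPM to 2.74 and 32.8 CPM. Itpr3 went from 169 and 127 CPM to 87.6 and 46.9 CPM. Dclk1 went the other way, from 46.1 and 41.2 CPM to 101 and 79.2 CPM. Plcb2 was also higher at day 14, with log2 changes of 3.44 and 3.82. Of the 10 tested markers, 2 were at least 4-fold lower at day 14 in both genotypes and 1, Plcb2, at least 4-fold higher. Of 10 testis and germ cell markers 4 were tested, and their summed level was between 4.38 and 8.5 CPM. The summed level of 11 neural markers lay between 11.1 and 29.3 CPM.

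Avil, an actin-bundling protein of the gelsolin family, was the 1 gene of the taste and tuft cell list called in the fit over days. Its levels, wildtype first, were 270 and 242 CPM on day 3, 4.31 and 31.4 on day 7, and 2.74 and 32.8 on day 14. The genotypes were close at day 3 and far apart afterwards. Its genotype difference rose by 1.78 per doubling of day (log2; adjusted p = 0.047 by edgeR), 1 of the 100 calls of that fit.

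The nearest table entries on each side of the members were with 1 exception not 4-fold lower at day 7 in both genotypes. Of 18 neighbours 13 were tested, and 1 of these was lower by that fold, against 0.78% of all tested genes. The median log2 change of the 13 was -0.04 in wildtype and -0.24 in Ezh2-deficient cells. This was Acaa1b, a peroxisomal thiolase 12363 bases from Slc22a14, at 8.37 and 7.24 CPM at day 3 and 1.76 and 1.68 CPM at day 7. Chpf, which helps to build chondroitin sulphate and lies 229 bases from Accn4, was at 109 and 111 CPM at day 3 and 105 and 88.8 at day 7. Tssc4, 442 bases from Trpm5, was at 25.6 and 28.4 CPM and then 27.6 and 25.8 CPM. Lamc3, beside Fibcd1, was at 6.25 and 4.04 CPM and then at 13.0 and 7.86 CPM. Ush1c and Myod1 beside Otog, Slc2a7 beside Slc2a5 and Fshr beside Lhcgr were at most 0.108 CPM in every library. In the GENCODE annotation Akr1b7, Accn4 and Pcdh8 each overlap another gene on the opposite strand, and without the strand of the reads these cannot be told apart.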

How the data were processed

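RNA-seq of 6 libraries (1 per genotype and day) was analysed from a deposited table of whole-number read counts per gene, not normalized. The table also held RPKM values, made by the authors from counts, coding length and a total per library, per the file headers and the values. They were used only to compare levels between genes. CASAVA 1.9, TopHat 12.0.6, HTSeq and mm10 stand in the submitters' processing notes, without a role. The sources used here do not give strandedness, read length or the counting annotation.

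Genes were kept by filterByExpr (minimum count 10, day as group), which left 16280. The filter, the prior count and the main fits used the counts as listed, at 2 per fragment. All 9 members passed. The tests were edgeR 4.0.16 (R 4.3.3) quasi-likelihood F tests, two-sided, with TMM factors, 2 residual degrees of freedom for genotype and 1 for its change with centred log2 day, Benjamini-Hochberg adjusted over all genes kept, threshold 0.05. The SE given with an edgeR value was worked back from its test, as the absolute log2 value divided by the square root of F. DESeq2 1.42.0 and limma 3.58.1 (voom) were alternatives. Nothing in the labels says that libraries came from separate animals, so p-values do not measure a spread between animals. In the genotype fit the residual is how far the genotype difference varies between the days. A difference confined to a single day therefore adds to the error, and that fit cannot settle it. Fold counts used log2 CPM with a prior count of 2. Steps were tested on simulated data.

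The members, gene lists and tests were chosen with earlier results of these data known. Named besides the members were Ezh2, up to 4 genes per list by highest mean CPM, any that passed a test, the nearest entry on each side of each member, and 6 genes of most similar profile with at least 1 CPM. Otogl, Akr1b10, Pou2f3, Gnat3, Nr5a1, Hsd3b1, Hsd17b3, Fshr, Chad and Angptl6 were singled out after their values were seen, where no other part of the rule names them.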

Additional observations from a re-analysis of the deposited data

Results flagged for a closer look

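Otog, Slc2a5 and Fibcd1 stood on opposite sides of equal expression at days 3 and 7. Otog had a ratio of Ezh2-deficient to wildtype of 0.884 at day 3 and 2.99 at day 7, Slc2a5 0.832 and 4.36, and Fibcd1 0.697 and 6.57, with counting intervals that exclude 1 each time. For Fibcd1 the day 14 ratio was 1.72, again on the other side from day 3. The difference between single days was not tested, because each genotype has 1 library per day.

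Fibcd1 also moved in opposite directions after day 7, to 208% of its day 7 level in wildtype and 54.4% in Ezh2-deficient cells, a difference that was not tested either.

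For 2 genes of the marker lists the genotype difference changed with day by edgeR's quasi-likelihood test. Avil was at 1.78 (log2, Ezh2-deficient minus wildtype) per doubling of day (adjusted p = 0.047 by edgeR). Matn1, the cartilage matrix protein matrilin 1, was at -1.12 (adjusted p = 0.044 by edgeR).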

How the results depend on the processing

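Of the values of single genes under the alternatives, 478 kept their direction and call or stayed within counting error, 1 moved and 5 reversed. The reversals were those of the shared genotype difference (log2, main values in the report): Slc2a5 was at -5.15e-05 and Fibcd1 at -0.17 with limma-voom. With a day pair left out Slc2a5 ranged from -0.24 to 1.21, Fibcd1 from -0.018 to 1.74 and Pcdh8 from -1.41 to 0.057, with the reversal without the day 7 pair each time. Otog was at 0.034 with limma-voom. With counts divided by 2, so that 1 count is 1 fragment, the genotype difference was 0.80 for Trpm5 and 0.78 for Akr1b7, where the main values were 0.67 and 1.06. The value that moved was the day 7 change of Otog in Ezh2-deficient cells, -4.68 with RPKM values. Genes called for genotype numbered 2, and 9 with RLE factors, 0 with total counts only, 9 without a filter, 607 with DESeq2, 40 with limma-voom and between 0 and 980 with a day pair left out (980 without the day 3 pair). Genes called for the change with day numbered 100, and 270 with total counts only, 247 without a filter and 342 with DESeq2. No setting called a member. The lowest adjusted p of any member was 0.0926 for genotype (Fibcd1, without the day 3 pair, by edgeR) and 0.221 for the change with day (Trpm5, DESeq2). With a prior count of 8, 1 member was at least 2-fold apart at day 14, against 4. Pcdh8 was not tested at a minimum count of 30. No paired analysis was possible because the labels carry no replicate numbers; day is a term of every fit. From day 7 on, members hold few fragments, which limits every ratio there.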

Other observations

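Angptl6, an angiopoietin-like protein that shares the fibrinogen domain with Fibcd1, was also lower after day 3. Its levels, wildtype first, were 22 and 22.9 CPM on day 3, 1.48 and 6.76 on day 7, and 2.51 and 5.51 on day 14. The genotypes were equal within counting error at day 3, and the Ezh2-deficient library was the higher at days 7 and 14. The gene was singled out after its values were seen, and no test of a resemblance to Fibcd1 was made.

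Accn1, a relative of Accn4, had 7948 counts in the Ezh2-deficient day 3 library and 6 or fewer in each of the others. No other member of its channel family on the list had such a value in a single library.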
